A study of Mus musculus with 9 samples.

Results

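The nuclear-encoded subunits of respiratory complexes II to V, together with cytochrome c, were followed in the striatum of mice given 1 of 2 dopaminergic toxins. Members were taken by symbol alone: every probe set whose single annotated symbol was Sdha, Sdhb, Sdhc, Sdhd, Cyc1 or Cycs, or began with Uqcr, Cox4 to Cox8 or Atp5. This rule found 86 probe sets for 47 genes, of 12393 genes with a single-symbol probe set on the array. They comprised 4 genes of complex II, 9 of complex III, 1 for cytochrome c, 16 of complex IV and 17 of complex V, and the probe set with the highest mean signal stood for its gene. A filter on dim probe sets (mean signal under 741, the 40th percentile) left 44 of the 47 for testing, since Cox6b2, Cox7a1 and Cox8b of complex IV were below it. The mitochondrially encoded subunits were not analysed here.

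All 9 animals were male C57BL/6J mice aged 56 days, wild type as far as the labels say. The saline controls, the methamphetamine (METH) mice and the MPTP mice each gave 3 single-colour Affymetrix arrays, 1 array per mouse, which the labels call biological replicates. Both toxins are listed there as models of Parkinson's disease. The sources used here give no dose, no schedule and no interval before the striata were taken, so the stage of injury is unknown.

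The respiratory chain passes electrons from NADH, through complex I, and from succinate, through complex II, to ubiquinone, complex III, the mobile carrier cytochrome c and complex IV, which reduces oxygen. The proton gradient built on the way drives complex V, the ATP synthase, and most subunits are encoded in the nucleus. In the brain the ATP made this way mainly supports ion pumping and synaptic transmission. The striatum receives the axon terminals of midbrain dopamine neurons, which both toxins injure: MPTP is converted to MPP+, an inhibitor of complex I, and METH drives dopamine release. The cell bodies of those neurons lie outside the dissected tissue, and their axons hold little of the RNA in it.

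Promoter sequences are shown for the member with the smallest p-value of each complex in METH against Control, because several nuclear transcription factors are known to bind respiratory chain promoters as a group. They are from RefSeq (GRCm38.p6), whose promoter table matched 35 of the 47 members with 38 windows of 300 bases (250 before and 50 after the start of the gene). The 150 bases before the start are printed 5′ to 3′, all on the minus strand. Capitals mark matches to any of 6 motifs on either strand that lie wholly within the printed bases. Sdhd lies at chr9:50603850-50603999, Uqcrh at chr4:116075071-116075220, Cycs at chr6:50566570-50566719 and Cox8a at chr19:7217617-7217766. Atp5j has 2 starts, at chr16:84835626-84835775 (upstream) and chr16:84834977-84835126 (downstream).
Sdhd: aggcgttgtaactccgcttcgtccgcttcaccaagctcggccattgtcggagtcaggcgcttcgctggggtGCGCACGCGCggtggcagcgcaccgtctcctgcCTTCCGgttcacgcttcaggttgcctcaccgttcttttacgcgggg
Uqcrh: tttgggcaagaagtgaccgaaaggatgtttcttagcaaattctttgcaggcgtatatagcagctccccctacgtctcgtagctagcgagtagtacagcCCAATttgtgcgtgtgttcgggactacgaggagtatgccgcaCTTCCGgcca
Cycs: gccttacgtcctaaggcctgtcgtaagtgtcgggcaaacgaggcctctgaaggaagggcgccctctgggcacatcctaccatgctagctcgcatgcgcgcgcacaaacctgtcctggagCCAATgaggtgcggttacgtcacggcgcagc
Cox8a: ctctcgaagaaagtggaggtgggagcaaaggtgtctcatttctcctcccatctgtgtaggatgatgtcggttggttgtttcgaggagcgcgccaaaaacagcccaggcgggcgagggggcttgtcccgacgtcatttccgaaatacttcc
Atp5j, upstream start: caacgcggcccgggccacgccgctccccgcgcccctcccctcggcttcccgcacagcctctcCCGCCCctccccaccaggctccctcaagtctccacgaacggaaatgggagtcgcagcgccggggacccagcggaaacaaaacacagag
Atp5j, downstream start: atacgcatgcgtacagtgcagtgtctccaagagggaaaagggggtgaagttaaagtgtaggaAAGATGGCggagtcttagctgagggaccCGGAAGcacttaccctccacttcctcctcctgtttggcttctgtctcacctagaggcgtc

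The motifs searched were GCGCA, any base, then GCGC (NRF1), CGGAAG (ETS family, which includes GABPA), AANATGGC (YY1), TCAAGGTCA (ERR alpha), GGGCGG (SP1) and CCAAT (the CCAAT box), and no member window held overlapping matches of different motifs. The NRF1 letters occurred in 26.3% of member windows, against 4.6% of all 32851 promoters and 10.5% of the promoters of tested genes. The ETS letters occurred in 55.3% of member windows, against 16.9% and 30.5%. In the printed stretches the Sdhd window held both, at bases -79 to -70 and -46 to -41 from the start. The ETS letters also lay at -10 to -5 in Uqcrh and at -60 to -55 in the downstream window of Atp5j, which held the YY1 letters at -88 to -81. Cox8a had ETS letters at -5 to 0 and 32 to 37 and CCAAT at -171 to -167, none wholly within the printed bases. YY1 letters were found in 10.5% of member windows (6.05% of all promoters, 8.58% of tested ones) and ERR alpha letters in 5.26% (0.423% and 0.306%). CCAAT was found in 52.6% (37.4% and 37.2%) and SP1 letters in 36.8% (35.7% and 63.4%). A match describes the letters of the window and says nothing about binding.

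Signals are the deposited linear intensities, and differences are log2 fold changes from limma with their standard errors (SE). A gene passed the test at an adjusted p under 0.05 (Benjamini-Hochberg, all 7964 tested genes). Every array had the same trimmed mean signal (2501), and array medians ran from 1111 to 1233. METH 2 stood apart, with the highest median and the narrowest distribution of signals. Its Gapdh 3′ to 5′ ratio of 0.732, a gauge of RNA quality, was the lowest of the 9 (0.828 to 0.858 in Control). A high ratio, not a low one, marks degraded RNA. The METH 2 ratios of Actb (1.084), pyruvate carboxylase (1.724) and transferrin receptor (2.939) lay within the range of the other arrays. Gfap, the intermediate filament of reactive astrocytes and the check that the groups differ, rose in METH (log2 fold change 1.13 ± 0.13 SE, adjusted p = 0.0404) and in MPTP (1.14 ± 0.13, adjusted p = 0.0382). It was the only gene past the test in each comparison, or 0.0126% of those tested. This call depended on the processing and on single arrays. With arrays centred on their medians, or with the replicate number as a block, 0 genes passed in either comparison, and in MPTP 0 passed with array weights or with only the groups compared in the fit. In METH the number of genes past the test was 1 with Control 3 left out, 2 with METH 2 or MPTP 2 left out and 0 with any of the other 6 arrays left out. In MPTP it was 2 with Control 3 left out and 0 with any of the other 8 left out.

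After METH most subunit transcripts of every complex lay slightly below the saline level, and no single member passed the test. Of the 44 members tested 39 had a negative fold change, against 49.7% of all genes. Their median log2 fold change was -0.13, and that of all genes 0.001. By complex the members below 0 numbered 4 of 4 in complex II, 8 of 9 in complex III, the gene of cytochrome c, 10 of 13 in complex IV and 16 of 17 in complex V. The medians were -0.095, -0.14 (complex III), -0.29, -0.10 and -0.14 in that order. With limma 0 of 44 members passed (background 0.0126%), with adjusted p-values of 0.503 to 0.985. At an unadjusted p under 0.05 there were 5 members, all lower (3.05% of all genes were), and 0 higher (5.2% of all genes). The 3 METH values lay below all 3 control values in 11 members (7.19% of all genes) and above them in 0 (6.48%). Without METH 2, 36 of 44 members were below 0 and the median was -0.11. Fewer cells of a type and less RNA per cell cannot be told apart in RNA of whole tissue.

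**Figure D1:**
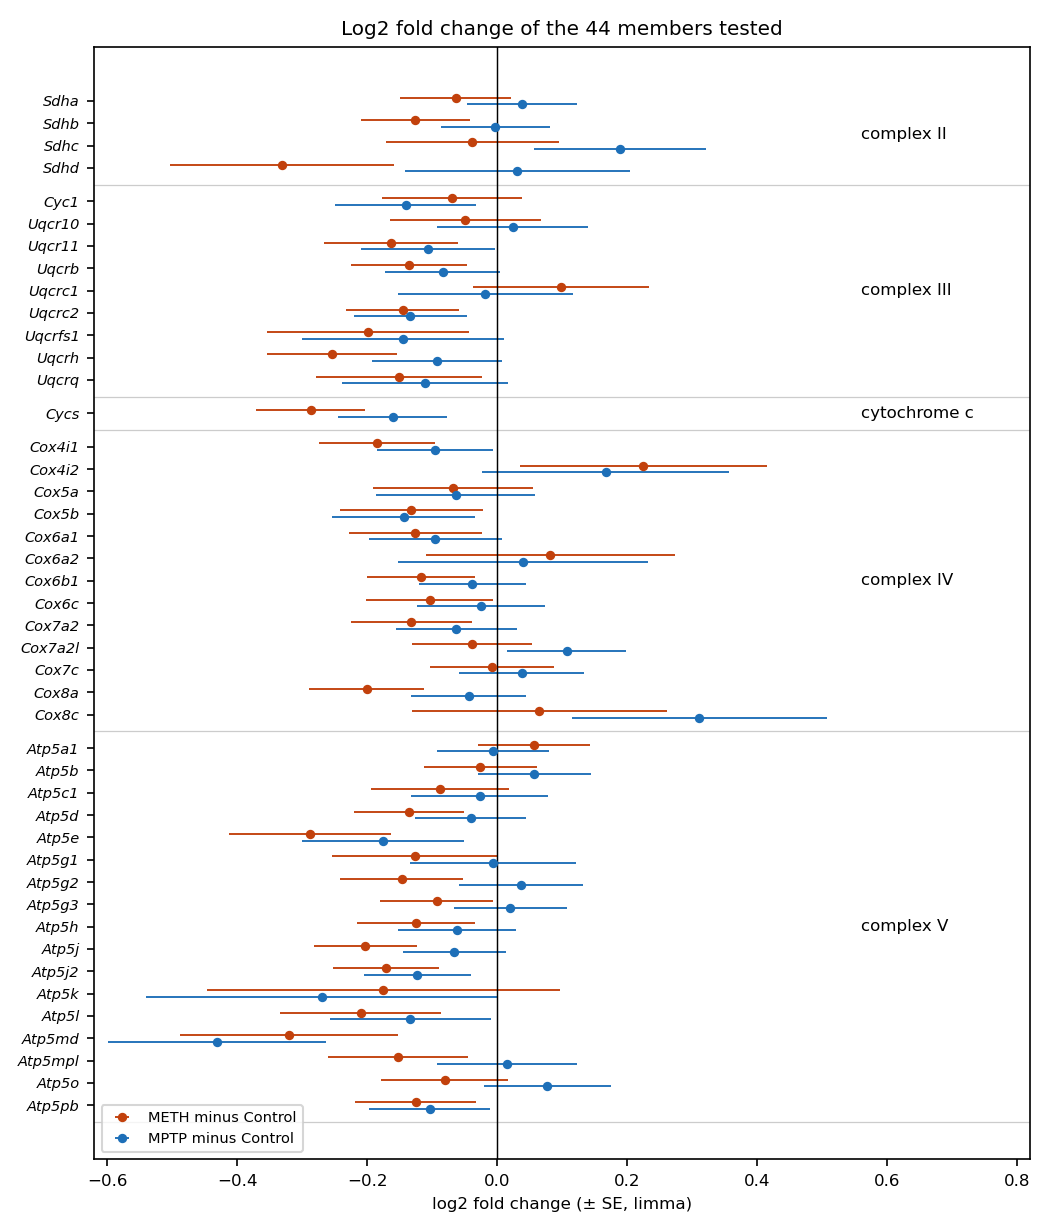
Log2 fold change of each of the 44 members tested, METH minus Control and MPTP minus Control, with bars of 1 SE from limma, ordered by complex. Most points lie left of 0 in METH (39 of 44), fewer in MPTP (30 of 44), and the SEs run from 0.079 to 0.27.

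The brightness of these transcripts has to be read beside those counts. Respiratory chain transcripts are abundant, and 38 of the 44 members lay in the 2 brightest deciles of the genes tested. In METH the median of the other genes moved with brightness, from 0.093 in the dimmest decile to -0.046 in the ninth and -0.063 in the brightest. In the brightest decile 73.1% of the other genes were below 0, and 26 of 28 members were, with a median of -0.13. In the ninth decile 65.0% of the other genes and 10 of 10 members were below 0, with medians of -0.046 and -0.15. Groups that did not overlap, with METH lower, made up 17.4% of the other genes in the brightest decile, against 7 of 28 members. Bright genes in general thus had lower values on the METH arrays, and the members' medians were larger in size than those of equally bright genes, a difference with no test of its own. The mean deviation of the brightest decile on single arrays ran from 0.015 to 0.037 for Control, -0.050 to 0.002 for METH and -0.025 to 0.022 for MPTP. Its part in the members' values was not tested. Under quantile and cyclic loess normalization, which are meant to level such trends across arrays, 38 and 37 of 44 members were below 0. Their medians were -0.072 and -0.067, and those of all genes -0.014 and -0.013. Values of equally bright genes under these scalings were not worked out, so what remained of the trend is not known.

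**Figure D2:**
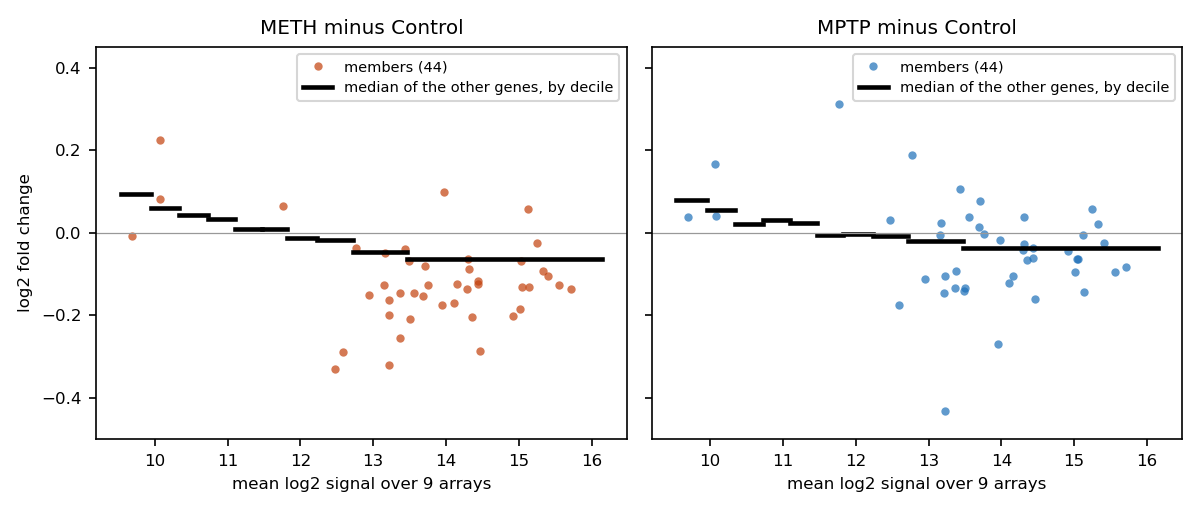
Log2 fold change against mean log2 signal over the 9 arrays for the 44 members (points), with the median of the other genes in each decile of brightness (black bars), for METH minus Control (left) and MPTP minus Control (right). The bars slope downwards from 0.093 to -0.063 in METH and from 0.079 to -0.036 in MPTP, and most members lie below them in METH.

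Cycs, the somatic cytochrome c that carries electrons between complexes III and IV and starts the apoptosome when it leaves the mitochondrion, had the smallest p-value of all members. Its signals were 24518, 24288 and 26282 in Control, 20856, 21159 and 19514 in METH, and 23012, 22619 and 21494 in MPTP. All 3 groups were separate, with METH lowest and MPTP between. The log2 fold change was -0.29 ± 0.084 in METH (-18.1% on the linear scale, adjusted p = 0.503) and -0.16 ± 0.084 in MPTP (-10.6%, adjusted p = 0.873). The other probe sets of Cycs gave smaller values, -0.079 and -0.077 in METH and 0.043 and -0.079 in MPTP, so the size depends on which probe set is read.

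Complex II, succinate dehydrogenase, belongs to both the citric acid cycle and the respiratory chain, and all 4 of its subunits are nuclear. Sdhd, a membrane anchor that helps bind ubiquinone, read 5838, 5699 and 6757 in Control, 5045, 3951 and 5669 in METH, and 5056, 6133 and 7730 in MPTP. The METH arrays lay below every Control array, by -0.33 ± 0.17 (adjusted p = 0.634), while MPTP spread on both sides of the control values (0.031 ± 0.17, adjusted p = 0.988). The margin in METH was narrow (5669 against 5699), and the value was -0.19 without METH 2 and -0.45 without METH 3. A second Sdhd probe set gave 0.043 in METH and 0.21 in MPTP. Sdhb, the iron-sulphur subunit, read 13814, 14199 and 14810.0 in Control, 13205, 12701 and 13319 in METH, and 15134, 13461 and 14179 in MPTP. Its METH values lay below both other groups, with a fold change of -0.13 ± 0.084 against Control (adjusted p = 0.703), and its MPTP value was -0.003.

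Sdha, the flavoprotein that oxidises succinate, read 20042, 20190.0 and 20847 in Control, 18092, 20283 and 20139 in METH, and 20287, 21649 and 20766 in MPTP. Only METH 1 lay apart, and the fold changes of -0.064 and 0.038 were under 1 SE (0.085), although its second probe set gave -0.29 and -0.16. Sdhc, the other membrane anchor, had 6676, 6642 and 6874 in Control, 6921, 5778 and 7046 in METH, and 7069, 9402 and 6796 in MPTP. The 2 arrays that stood off were METH 2 (low) and MPTP 2 (high), and they set the fold changes of -0.038 ± 0.13 and 0.19 ± 0.13. Without METH 2 the METH value was 0.053, and without MPTP 2 the MPTP value was -0.12.

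Complex III hands electrons from ubiquinol to cytochrome c. Uqcrh, the acidic hinge protein that docks cytochrome c to cytochrome c1, read 10850.2, 11592 and 11991 in Control, 9286, 9751 and 9825 in METH, and 11952, 10875 and 9560.0 in MPTP. METH lay wholly below Control, by -0.25 ± 0.10 (adjusted p = 0.545), whereas MPTP ran across both groups (-0.093 ± 0.10). Uqcrc2, a core subunit, read 11126, 11417 and 11186 in Control, 9489.9, 10065 and 11008 in METH, and 10497, 10381 and 9871 in MPTP. Both toxin groups lay below every control array, by -0.14 ± 0.087 (METH, adjusted p = 0.677) and -0.13 ± 0.087 (MPTP, adjusted p = 0.896), and its second probe set gave -0.19 and -0.17.

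For the catalytic subunits of complex III the groups overlapped. Cyc1, which encodes cytochrome c1, read 11372, 12989.7 and 11997 in Control, 10479, 12437 and 11791 in METH, and 12106, 10983 and 9940.2 in MPTP. METH 1 and MPTP 3 were the lowest arrays, and the fold changes were -0.069 ± 0.11 and -0.14 ± 0.11. Uqcrfs1, the Rieske iron-sulphur protein, had fold changes of -0.20 and -0.15 with an SE of 0.15, and without Control 2, its highest array at 12772, the MPTP value was 0.012. The small subunits Uqcr11 (-0.16 ± 0.10 in METH, -0.11 in MPTP) and Uqcrb (-0.14 ± 0.089 and -0.084) overlapped with Control in both comparisons. Uqcrc1, the other core subunit, was the one complex III member above 0 in METH (0.098 ± 0.14).

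**Figure D3:**
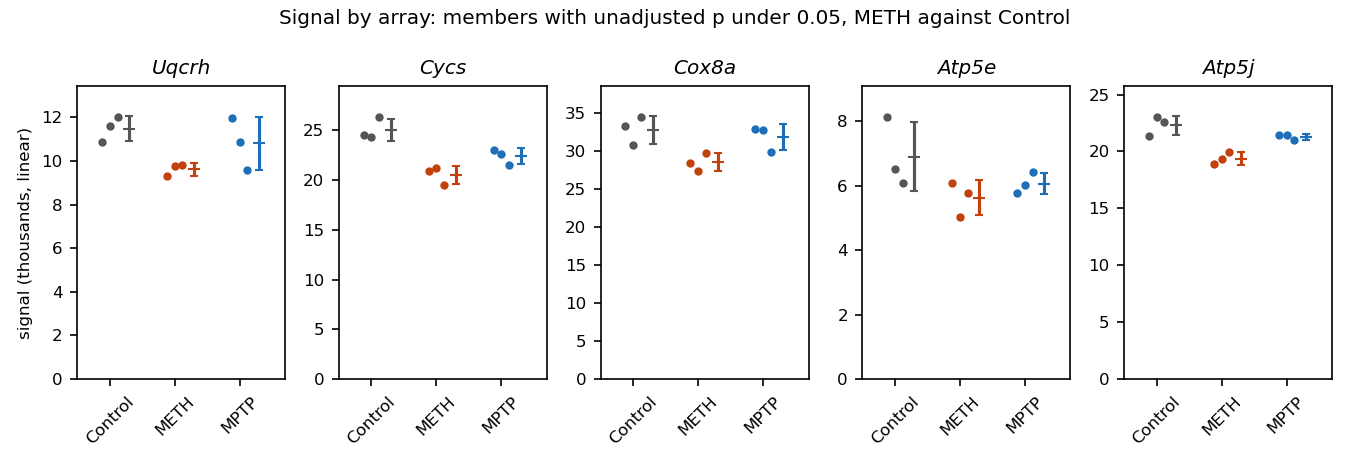
Linear signal, scaled down as the axis states, on each array for Uqcrh, Cycs, Cox8a, Atp5e and Atp5j, the 5 members with an unadjusted p under 0.05 in METH against Control; bars give the mean and SD of 3 arrays. The METH points lie below every Control point in each panel, narrowly for Atp5e (6077 against 6082).

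Complex IV, cytochrome c oxidase, has nuclear subunits that come in general and tissue-specific forms. Cox8a, the general form of the smallest subunit, read 33234, 30784 and 34423 in Control, 28480.3, 27369 and 29724 in METH, and 32879.5, 32794 and 29813 in MPTP. METH lay below both other groups, by -0.20 ± 0.089 against Control (adjusted p = 0.595), and MPTP overlapped with Control (-0.044). Cox4i1, the general form of a regulatory subunit, read 34816, 36242 and 34668 in Control, 30677, 30055 and 32279 in METH, and 35482, 33386 and 30218 in MPTP. Its METH arrays were all below Control (-0.19 ± 0.089, adjusted p = 0.624), and its MPTP arrays were spread across the range of both (-0.096 ± 0.089).

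Of the other general subunits, 4 had small negative values in METH: Cox7a2 -0.13 ± 0.093, Cox5b -0.13 ± 0.11, Cox6a1 -0.13 ± 0.10 and Cox6b1 -0.12 ± 0.083. In MPTP these 4 had -0.063, -0.14, -0.095 and -0.038, and their groups overlapped with Control in both comparisons. Cox6c, Cox5a and Cox7c lay nearer 0, with -0.10, -0.068 and -0.008 in METH and -0.025, -0.064 and 0.038 in MPTP. Cox7c was read only by a dim probe set (mean 822.1 in Control). Cox5b was read by 5 probe sets past the filter, all below 0 in METH (-0.12 to -0.29) and in MPTP (-0.099 to -0.15). Cox7a2l, a gene linked to supercomplexes of complexes III and IV, had -0.039 in METH and 0.11 in MPTP. Its other probe sets gave 0.25 and 0.099 in METH, so its METH direction is not settled.

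The tested tissue isoforms of complex IV were above 0 in both comparisons. Cox4i2 and Cox6a2 lay in the second dimmest decile, where the other genes also had medians above 0 (0.059 in METH, 0.055 in MPTP). Cox4i2, known from lung and from the response to low oxygen, had 0.22 ± 0.19 in METH and 0.17 ± 0.19 in MPTP. Cox6a2, the heart and muscle form, had 0.082 and 0.040 with an SE of 0.19. Cox8c, a testis form, had 0.065 ± 0.20 in METH and 0.31 ± 0.20 in MPTP, the latter resting on MPTP 3 (5374 against 2846 to 3759 in Control). All of these values are under 2 SE, and the adjusted p-values were 0.76 or higher. The 3 isoforms below the filter, which were not tested, had differences of mean log2 signal from Control of 0.055 and 0.30 for Cox6b2, 0.74 and 0.084 for Cox7a1, and -0.17 and 0.043 for Cox8b, in METH and MPTP in that order, at mean signals of 153 to 527. For Cox8b the linear means go the other way in METH (262.0 against 253.0 in Control), since METH 3 read 85.7 and the other METH arrays 378.9 and 321.3. The Cox7a1 value in METH came from METH 2 and METH 3 (354.7 and 358.4), since METH 1 read 130.6 against 146.5 to 160.7 in Control.

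Complex V consists of a catalytic head, a central stalk, a stator stalk and a membrane part that holds the rotor ring and accessory subunits. In the head, Atp5a1 (alpha) and Atp5b (beta), which form the catalytic sites, lay within 1 SE of Control in both groups by the brightest probe set of each (0.057 and -0.026 in METH, -0.006 and 0.057 in MPTP, SE 0.086 and 0.087). A second Atp5a1 probe set read 21899.5, 22971 and 20589 in Control, 19028, 17931 and 19288 in METH, and 19768, 19779.8 and 19142 in MPTP. There both toxin groups lay below every control array (-0.22 and -0.16), and a dimmer probe set gave -0.15 in METH and -0.42 in MPTP. The probe sets thus split in sign in METH, where no direction can be given for Atp5a1. In MPTP all were below 0, but the brightest only by -0.006, and its sign changed under quantile normalization. Atp5e, the epsilon subunit of the central stalk, read 8117, 6504 and 6082 in Control, 6077, 5017 and 5782 in METH, and 5767, 6013 and 6419 in MPTP. Its METH arrays lay below Control by a narrow margin and its fold change was -0.29 ± 0.12 (adjusted p = 0.581), while the highest array was Control 1 and the MPTP value was -0.18 ± 0.12. Without Control 1 the METH value was -0.17. Atp5d (delta) had -0.14 ± 0.085 and Atp5c1 (gamma) -0.088 ± 0.11 in METH.

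In the stator, Atp5j, coupling factor F6, read 21356, 22995 and 22566 in Control, 18858, 19313 and 19964 in METH, and 21415, 21444 and 21017 in MPTP. METH lay below both other groups and the arrays within each group were close, which gave -0.20 ± 0.079 against Control (adjusted p = 0.543) and -0.066 for MPTP. Atp5h (subunit d) also had every METH array below Control (-0.12 ± 0.091), and Atp5pb (subunit b) had -0.12 ± 0.093 in METH and -0.10 ± 0.093 in MPTP with overlap. Atp5o, which ties the stalk to the head, had -0.081 in METH and 0.077 in MPTP.

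In the membrane part, Atp5j2 (subunit f) read 18555, 19760.3 and 18369.9 in Control, 17569, 15876 and 16934 in METH, and 17429, 17375 and 17228 in MPTP. Both toxin groups lay below Control, by -0.17 ± 0.082 (adjusted p = 0.624) and -0.12 ± 0.082 (adjusted p = 0.896). Atp5md, a small subunit that links ATP synthase dimers, read 12509.6, 9055 and 13026 in Control, 8206, 8255 and 11188 in METH, and 7872, 9436 and 8101 in MPTP. It had the largest MPTP value of the members (-0.43 ± 0.17, -25.8% on the linear scale, adjusted p = 0.873) and -0.32 ± 0.17 in METH, but Control 2 was low and the groups overlapped in both. Atp5l (subunit g) had -0.21 ± 0.12 and -0.13 ± 0.12.

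The 3 genes that encode the same rotor protein, subunit c, had small values in both comparisons. Atp5g1, Atp5g2 and Atp5g3 had -0.13, -0.15 and -0.093 in METH and -0.006, 0.037 and 0.020 in MPTP, with SEs of 0.087 to 0.13. Atp5k (subunit e) varied most between arrays of any member: it read 11359, 26776 and 12332 in METH, an SD of 0.68 on the log2 scale. METH 2 was the high array there, although 36 of 44 members lay below their control mean on that array.

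**Figure D4:**
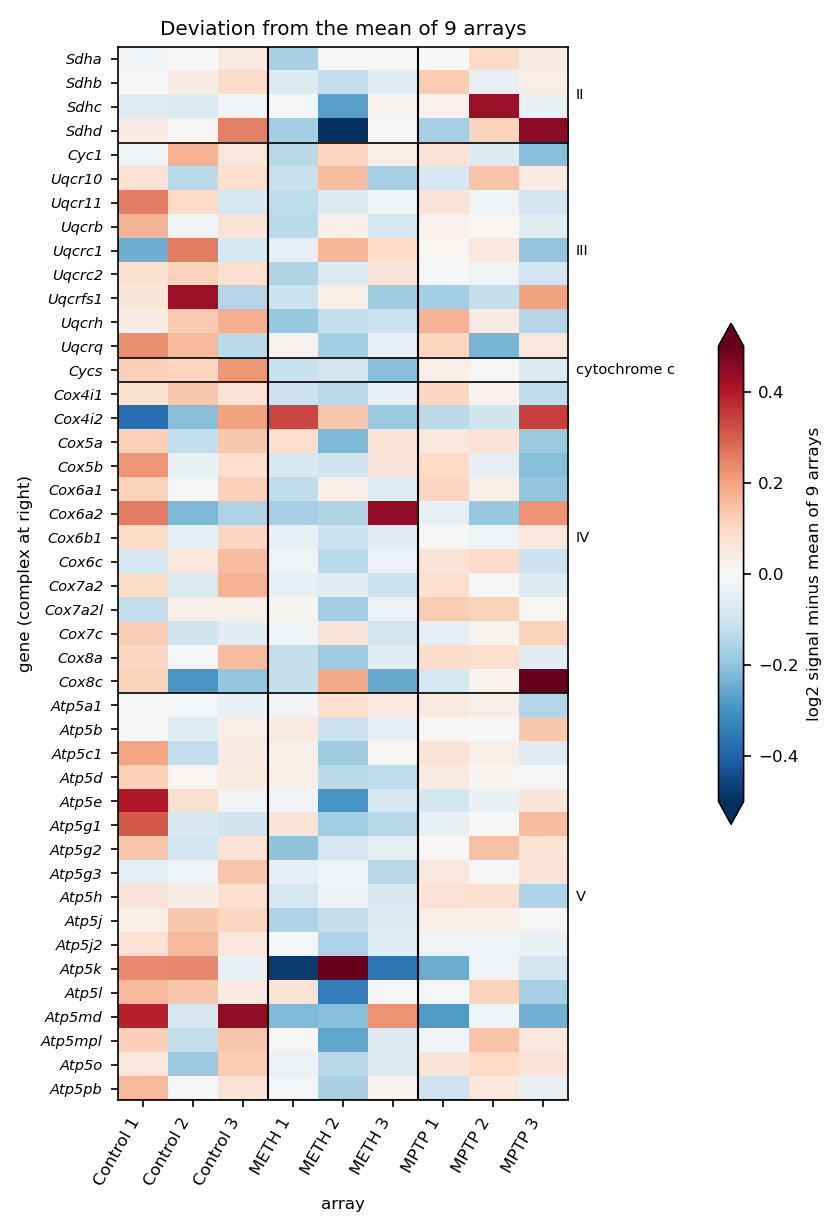
Deviation of each member's log2 signal from its mean over the 9 arrays (colour, -0.5 to 0.5 with values beyond in the end colours), 1 row per gene in order of complex and 1 column per array. The mean deviations of the METH columns were -0.066, -0.076 and -0.046. That of Control 2 was 0.010, lower than 0.087 and 0.060 for the other controls. Counted against the control mean, which the colours do not show, 36, 36 and 39 of 44 members were lower on the METH arrays and 29 on Control 2.

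After MPTP fewer members lay below the saline level, and no single member passed the test. Of the 44 members 30 were below 0 against 48.2% of all genes, with a median of -0.042 against 0.006. Members below 0 numbered 8 of 9 in complex III (median -0.11), 8 of 13 in complex IV (-0.038) and 12 of 17 in complex V (-0.041), but 1 of 4 in complex II (0.034). With limma 0 of 44 passed (background 0.0126%), with adjusted p-values of 0.873 to 0.997. At an unadjusted p under 0.05 there was 1 lower member, Atp5md (1.95% of all genes), and 0 higher (3.54%). Groups did not overlap in 3 members with MPTP lower, Uqcrc2, Cycs and Atp5j2 (5.14% of all genes), and in 0 with MPTP higher (6.13%). These shares lie near the background. In 30 of the 44 members the difference was smaller than 1 SE. In the brightest decile the other genes had a median of -0.036 with 66.2% below 0, and 22 of 28 members were below 0 with a median of -0.053.

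The MPTP counts moved with the scaling. Under quantile and cyclic loess normalization 25 and 26 of 44 members were below 0, and 38 with each array centred on its median. In complex II these scalings gave 0, 0 and 3 of 4, so no direction can be given for complex II after MPTP. Without MPTP 3 the count was 25 of 44 (median -0.018), and without Control 2 it was 36 of 44 (median -0.071). METH and MPTP were compared with the same 3 control arrays, so the values of the 2 comparisons are not independent: 28 members were below 0 in both, and the 3 members of the MPTP count were also among the 11 of METH.

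**Figure D5:**
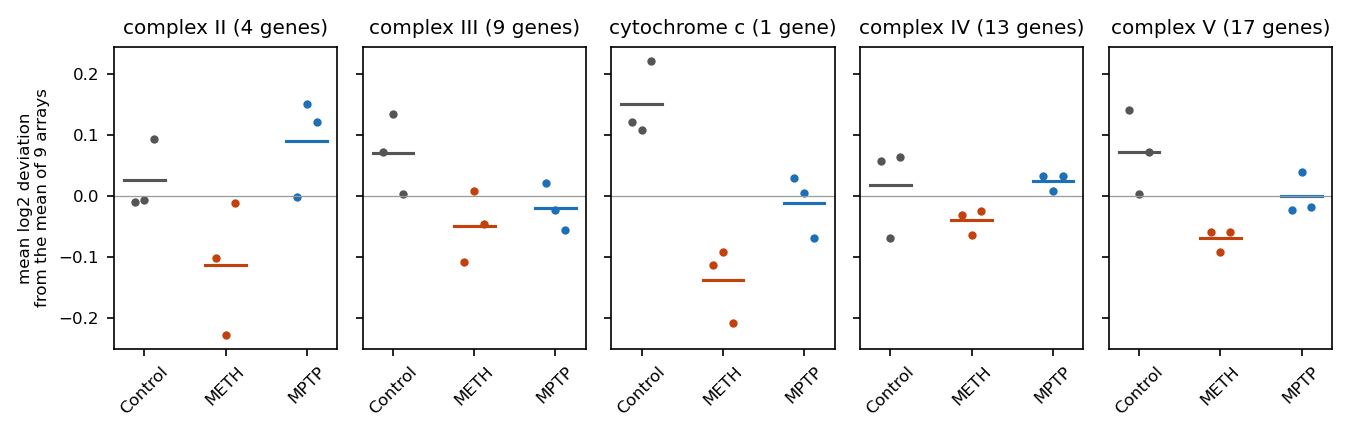
Mean deviation of the tested members of each complex from their mean over the 9 arrays (log2), 1 point per array, with a line at the group mean. METH lies below Control on every array in complex V (-0.092 to -0.059 against 0.002 to 0.14) and cytochrome c, and in complex II only by -0.012 against -0.010, while in complexes III and IV the groups overlap.

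Averaged over the 44 members, the array values were 0.087, 0.010 and 0.060 in Control, -0.066, -0.076 and -0.046 in METH, and 0.005, 0.026 and 0.000 in MPTP, as log2 deviations from the mean of 9 arrays. METH lay below both other groups on each array, and MPTP overlapped with Control through Control 2. With arrays centred on their medians METH 3 (-0.020) lay above MPTP 3 (-0.038), so the separation of METH from MPTP was lost under that scaling. For complex II the averages were -0.010, -0.007 and 0.093 in Control, -0.10, -0.23 and -0.012 in METH, and -0.003, 0.15 and 0.12 in MPTP. METH 3 was there only just below the lower controls, and not below them under quantile normalization (-0.012 against -0.028 for Control 1) or cyclic loess (-0.018 against -0.022).

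Set directly against MPTP, in the same fit over all 9 arrays, the METH values were lower for most members. The METH arrays are those already compared with Control, so this comparison is not independent of that one. Of the 44 members 36 were below 0 (52.9% of all genes), with a median of -0.074 against -0.008, and 32 of 44 without METH 2. Complex II had all 4 below 0 with the most negative median of the complexes, -0.17, followed by -0.083 in complex V, -0.069 in complex IV and -0.052 in complex III, and Cycs had -0.13. With limma 0 genes passed in this comparison (background 0.0%), and the members' adjusted p-values were all 0.999. At an unadjusted p under 0.05 there were 0 members, against 1.29% of all genes lower and 1.56% higher. The groups did not overlap in 9 members with METH lower, Sdha, Sdhb, Cycs, Cox6b1, Cox8a, Atp5g2, Atp5g3, Atp5j and Atp5o (3.7% of all genes), and in 0 with METH higher (3.39%). All 9 were in the brightest decile, where 4.94% of the other genes were separated this way and their median was -0.029, with 67.6% below 0. The difference between the toxins was smaller than 1 SE for 28 of the 44 members.

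Reading every probe set rather than the brightest of each gene gave a like count. The 44 brightest probe sets are among those read, so these counts are not independent. Of 77 member probe sets past the filter, 64 were below 0 in METH (median -0.13), 53 in MPTP and 61 in METH against MPTP. Among the 24 genes with several such probe sets, the signs were the same in 17 for METH and in 16 for each of the other comparisons. In METH the probe sets split in Atp5a1, Atp5c1, Atp5k, Cox7a2l, Sdhd, Uqcr10 and Uqcrq. The widest split in sign was in Uqcrq, with -0.15 for the brightest probe set and 0.34 for the other. A dimmer Cox5a probe set, singled out after its values were seen, had the METH value furthest from 0 of the 77. It read 11647, 12420.5 and 11729 in Control, 6074, 7472.5 and 7152 in METH, and 10644, 8211 and 10632 in MPTP (-0.80 and -0.29). Both toxin groups lay below every control array there, while the other Cox5a probe sets had -0.068 and -0.047 in METH. Respiratory chain subunits have many pseudogene copies, and reading of such copies by these probe sets was not tested.

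Genes around the complexes were taken as lists. The 34 genes with an Nduf symbol stood for complex I, the target of MPP+, although Ndufa4 has since been assigned to complex IV. Of these, 32 were below 0 in METH (median -0.13) and 27 in MPTP (median -0.078), against 49.7% and 48.2% of all genes. In either comparison 0 passed the test. Of the 34, 31 lay in the 2 brightest deciles, where 29 (METH) and 25 (MPTP) were below 0. Of the genes outside complexes II to V, which include the Nduf genes, 73.1% and 66.2% were below 0 in the brightest decile. In the ninth decile 65.0% and 57.6% of such genes were. At an unadjusted p under 0.05, 4 were lower in METH (Ndufa1, Ndufb2, Ndufb7 and Ndufb8, -0.23 to -0.31; 3.05% of all genes were lower) and 2 in MPTP (Ndufa4 -0.20 and Ndufb7 -0.25; 1.95% of all genes). In the citric acid cycle 13 of 16 enzymes were below 0 in METH (median -0.094) and 10 in MPTP (-0.021), with 0 past the test. The METH median of the Nduf list was close to that of complexes II to V and cytochrome c.

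Assembly factors, which build the complexes but are not part of them, lay on both sides of 0. Those of complex IV had 8 of 16 below 0 in METH (median -0.024) and 11 in MPTP (-0.013). Among them Cox16, which helps insert a mitochondrially encoded subunit, read 1433, 1279.9 and 1291 in Control, 1914, 1783 and 1997 in METH, and 1288, 1779 and 1557 in MPTP. METH lay above every control array, by 0.51 ± 0.12 (adjusted p = 0.442), and MPTP overlapped (0.20 ± 0.12). The factors of complex II had 2 of 3 below 0 in METH and 1 in MPTP, and those of complex III 3 of 5 in both. The complex V list had 3 of 3 and 2 of 3. It included Atpif1 (-0.077 in METH, 0.026 in MPTP), an inhibitor of ATP synthase rather than an assembly factor. Hccs, which attaches haem to cytochrome c, had -0.054 and -0.042.

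Of 16 tested regulators of respiratory genes, 13 were below 0 in METH (median -0.064) and 12 in MPTP (-0.063), and 0 passed. Ppargc1b, a coactivator of mitochondrial biogenesis, read 6514, 7095 and 6548 in Control, 5881, 5806 and 5671 in METH, and 6065, 5502 and 5869 in MPTP. Both toxin groups were below every control array (-0.21 ± 0.084 each, adjusted p = 0.543 and 0.873). Esrrg, a nuclear receptor that acts with such coactivators, read 1424, 1265 and 1469 in Control, 1742, 1702 and 1684 in METH, and 1716, 1824 and 1719.6 in MPTP. Both toxin groups were above every control array (0.31 ± 0.088, adjusted p = 0.503, and 0.34 ± 0.088, adjusted p = 0.692). Ppargc1a had -0.14 and 0.003, Nrf1 0.022 and -0.21, Gabpa -0.088 and -0.042, and Tfam -0.18 and -0.012, all with overlapping groups.

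Cell type markers also differed beside the members, and their part in the members' values was not tested. Of 8 general neuronal markers 6 were below 0 in METH (median -0.14) and 5 in MPTP (-0.065), and their summed signal ran over the Control arrays from 136098 to 151573, over METH from 129299 to 138454 and over MPTP from 137496 to 142132. Of 9 markers of striatal spiny neurons, the main cell type of this tissue, 7 and 8 were below 0 (medians -0.077 and -0.084), with sums of 226503 to 248194, 220822 to 232925 and 202085 to 233774. All 9 tested of 10 microglial markers were above 0 in both (medians 0.19 and 0.18), with sums of 46463 to 52193 (Control), 55899 to 57239 (METH arrays) and 52282 to 56940 (MPTP arrays). Astrocyte sums on Control arrays were 81234 to 86618, on METH arrays 89004 to 92559 and on MPTP arrays 88069 to 96437, and 7 and 6 of 8 markers were above 0. Oligodendrocyte markers were above 0 in 5 of 9 in METH and 9 of 9 in MPTP, with sums of 164079 to 182966, 175381 to 179858 and 177239 to 195904. The microglial and astrocyte sums of both toxin groups lay above Control without overlap (by a narrow margin for microglia in MPTP), and the neuronal and oligodendrocyte sums overlapped. The astrocyte separation rested on Gfap: without it the sums of the other 7 markers were 76214 to 80182, 77513 to 80483 and 76719 to 82841, with overlap. No marker was listed at 0. Of the muscle list 2 of 10 genes passed the filter, of the choroid plexus list 2 of 6, of the cortical neuron list 1 of 5 and of the blood list 1 of 4. The choroid plexus sums varied widely within each group, from 13472 to 69681 in Control, 10340 to 53891 with METH and 4533 to 35979 with MPTP, with overlap between the groups. Endothelial sums overlapped (14282 to 16086, 14631 to 15548 and 14696 to 15616).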

How the data were processed

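RNA from 9 striata was measured on Affymetrix arrays, and the authors deposited 1 linear intensity per probe set and array (22690 probe sets). The submitters' processing notes list RMA, without its version. RMA usually gives log values with nearly equal distributions, and the deposited intensity values have neither property, so how probe sets were summarised is unsettled. The design text names a larger array than the one whose platform annotation (an older table) matched the deposited probe sets. Of these, 20380 had 1 symbol, 691 several, 1555 none, and 64 were controls. By gene ID, 20351 symbols were found in RefSeq (GRCm38.p6), and 0 changed.

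Values were taken to log2 as they were, without a pseudocount. The filter on dim probe sets was set at the 40th percentile of mean log2 values (9.53), and the probe set of highest mean stood for its gene, which left 7964 of 12393 genes. Groups were compared with limma 3.58.1 (R 4.3.3; lmFit and eBayes over all 9 arrays, 6 residual and 3.9 prior degrees of freedom) with Benjamini-Hochberg adjustment over all genes. An exact permutation test of 3 against 3 arrays cannot go below p = 0.1 and was not used. Spearman correlations between arrays were 0.97 to 0.985, and 0 pairs were identical. Precision is limited by the 3 arrays per group, and no detection calls were used here. The fit was tested on simulated data.

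Members and lists were chosen with earlier results of these data known. Named were all genes of complex II, Cyc1 and Cycs, up to 5 members of each other complex with the smallest p in each comparison with Control, the tissue isoforms of complex IV, the subunit c genes, members left out by the filter, and genes of the pathway lists (not of the cell type markers) with an unadjusted p under 0.05 (up to 4 a list). Other members and regulators were named after their values were seen. Alternatives were 3 normalizations, a pseudocount, other filters, other choices of probe set, array weights, a fit of only the groups compared, the replicate number as a block and leaving out each array. Same-numbered arrays of different groups had correlations of deviations from -0.15 to 0.05, so the numbers were not treated as pairs.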

Additional observations from a re-analysis of the deposited data

How the results depend on the processing

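Over all alternatives run, 0 members passed the limma test in any comparison, and 1 to 7 (METH), 0 to 2 (MPTP) and 0 to 1 (METH against MPTP) had an unadjusted p under 0.05. In the main fit 3.05% of all genes were lower and 5.2% higher at that level in METH. The shares were 1.95% and 3.54% in MPTP, and 1.29% and 1.56% in METH against MPTP. Shares of all genes under each alternative are not given here, so these counts are not read as a result about the members. In METH against Control the median of the 44 members was -0.072 with quantile normalization, -0.067 with cyclic loess and -0.19 with arrays centred on their medians, where the median of all genes was -0.063. The complex IV median was -0.043, -0.036 and -0.167 under these, and centring gave -0.208 for complex III and -0.20 for complex V. For METH against MPTP the cyclic loess median was -0.047. In MPTP against Control centring gave a median of -0.083. The members of complex II below 0 there were 0 (quantile), 0 (loess), 3 (centred), and 2 each with the mean of all probe sets, without _x_at and _s_at probe sets and with array weights. Genes past the test went from 1 to 0 with centring in both toxin comparisons, and in MPTP to 2 with no filter, 0 with array weights and 0 with only the groups compared. With the replicate number as a block 0 genes passed in METH and 0 in MPTP, and no member did. The numbers are not known to pair the mice.

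Leaving out 1 array in turn gave 0 to 2 genes past the test in METH and 0 to 2 in MPTP. The METH medians ran from -0.156 to -0.102 over all members, -0.151 to -0.087 in complex III and -0.152 to -0.048 in complex IV. In MPTP the median ran from -0.071 to -0.018 and members of complex II below 0 from 0 to 2.

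Of the 44 members, 0 to 5 (METH), 0 to 9 (MPTP) and 0 to 5 (METH against MPTP) changed sign under any one alternative that kept all arrays, 9, 19 and 11 members in all, and the cause was not tested. Among the members named by the rule, these were in METH Cox6a2 (-0.011, quantile) and Cox7a2l (0.010 quantile, 0.104 mean of probe sets, 0.252 without _x_at and _s_at). In MPTP quantile normalization gave Atp5g1 0.012, Cox6a2 -0.007, Cox8a 0.007 and Sdhb 0.029, and loess gave 0.009 for Atp5g1, -0.013 for Cox6a2 and 0.020 for Sdhb. Centring gave -0.004 for Atp5g2, -0.020 for Atp5g3, 0.000 for Cox6a2, -0.003 for Sdha and -0.009 for Sdhd. The mean of probe sets gave -0.063 for Sdha, and leaving out _x_at and _s_at gave -0.083 for Sdhc. Array weights gave 0.050 for Atp5g1, -0.032 for Atp5g3, -0.011 for Cox4i2 and -0.071 for Sdhd.

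With 1 array left out, 12 (METH), 19 (MPTP) and 14 (METH against MPTP) of the 44 members changed sign at least once. Among the named members the range crossed 0 in METH for Atp5g1 (-0.202 to 0.006), Cox6a2 (-0.119 to 0.231), Cox7a2l (-0.089 to 0.015), Cox8c (-0.060 to 0.183), Cyc1 (-0.123 to 0.001) and Sdhc (-0.098 to 0.053). In MPTP it did for Atp5g1 (-0.077 to 0.125), Atp5g2 (-0.030 to 0.088), Atp5g3 (-0.016 to 0.077), Cox6a2 (-0.073 to 0.189), Cox8a (-0.089 to 0.003) and Sdhb (-0.047 to 0.038). It also did for Sdhc (-0.118 to 0.277), Sdhd (-0.127 to 0.179) and Uqcrfs1 (-0.275 to 0.012). For METH against MPTP it did for Sdhc (-0.315 to 0.020).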
